A study of Drosophila melanogaster with 58 samples.

Results

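The 7 Drosophila genes Nagk, CG6180, CG31674, CG7668, CG2767, GAPsec and CG17883 were chosen because their RNA, averaged over embryonic stages, was higher in embryos with ectopic gcm and lower in gcm mutants. They are 7 of the 11663 genes with a probe of their own on the arrays, with 1 probe each. In the ectopic gcm experiment, embryos of the cross MZ1060 x B5446, a Gal4 driver line and a UAS-gcm stock, were set against a pool of equal amounts of mRNA from the 2 parental lines, on 33 arrays covering stages 9 to 16. In the mutant experiment, homozygous gcmN7-4 embryos, picked by an embryo sorter because they lacked GFP, were set against OregonR embryos handled alike, on 25 arrays covering stages 10 to 14 and 16. The GFP balancer of the mutant stock was Kr-GFP for stages 10 to 13 and Ubi-GFP for stages 14 to 16. Each stage had 4 arrays, except stage 14 with ectopic gcm and stage 10 of the mutants with 5. The cells in which MZ1060 drives transcription are not given in the sources used here. Whole embryos were measured, so fewer cells of a type and less RNA per cell cannot be told apart.

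gcm (glial cells missing) encodes a transcription factor that turns neural precursors towards a glial fate and also acts in embryonic blood cells. Its paralogue gcm2 acts beside it, and repo, a homeobox gene of glia, is a well-known direct target. The 7 genes are not members of 1 known pathway, and the roles below are background. Nagk encodes N-acetylglucosamine kinase, which salvages an amino sugar. CG6180 belongs to the phosphatidylethanolamine-binding protein (PEBP) family, CG31674 to the 2-hydroxyacid dehydrogenases and CG2767 to the aldo-keto reductases. GAPsec encodes a protein with a TBC domain, the domain of Rab GTPase-activating proteins. The genes lie on chromosome arms 3R (Nagk and CG2767), 2L (CG6180 and CG31674), 3L (CG7668 and GAPsec) and 2R (CG17883), and gcm lies on 2L.

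Every value below is a log2 ratio of perturbed over wild type on one array, centred on that array's median, so 1 is a doubling and -1 a halving relative to the median probe. Ratios hold no absolute level. Probes measured per array numbered 11991 to 23103 of 23808 with ectopic gcm and 10822 to 23253 in the mutants. More than 40% of the probes had no value in replicate 1 of stage 9 (49.6%) and replicate 2 of stage 14 (40.9%) with ectopic gcm, and in replicate 4 of mutant stage 11 (54.5%). In replicate 4 of mutant stage 12, the deposited Cy5/Cy3 ratios correlated positively over probes with replicate 1 (rho 0.145), which was labelled the other way round. Of the 57 pairs of opposite orientation within a stage, 54 correlated negatively, that of replicates 2 and 4 of mutant stage 12 (-0.003) among them. With replicate 3, of the same labelled orientation, replicate 4 correlated at 0.216, and 33 of 35 such pairs were positive. Its pairs thus point both ways, so the orientation of that array is less sure, and it was kept as labelled.

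The averages over stages that selected the genes are given as a description. Their SEs come from a fit of both experiments together, in which a probe has the same residual variance in both. The spread within stages was larger in the mutants for each gene here. For CG31674 its SD was 0.58 with ectopic gcm and 1.72 in the mutants, and for CG6180 0.46 and 1.13. The SEs are thus not the precision of either experiment alone. Nagk averaged 0.81 ± 0.10 (SE of that fit, 33 arrays averaged) with ectopic gcm, 1.75-fold over wild type. In the mutants it averaged -1.55 ± 0.12 (SE of that fit, 25 arrays averaged), 2.94-fold under wild type. CG31674 averaged 0.96 ± 0.22 with ectopic gcm and -1.03 ± 0.25 in the mutants, and CG6180 averaged 0.62 ± 0.12 and -0.97 ± 0.14. The other four were closer to each other: CG7668 averaged 0.61 ± 0.14 with ectopic gcm and -0.80 ± 0.16 in the mutants, CG2767 0.62 ± 0.10 and -0.60 ± 0.11, GAPsec 0.60 ± 0.11 and -0.66 ± 0.13, and CG17883 0.56 ± 0.10 and -0.79 ± 0.11. gcm itself averaged 1.35 ± 0.10 with ectopic gcm and -0.95 ± 0.12 in the mutants. So gcm exceeded Nagk in the gain, while Nagk was the lower of the pair in the mutants, also with the doubtful array turned (-1.47 for Nagk and -0.99 for gcm).

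At an adjusted p under 0.05 in both averages (limma-moderated fit with Benjamini-Hochberg adjustment), 201 of 12223 probes, 1.64%, were higher with ectopic gcm and lower in the mutants. They stood for 170 of 7886 genes, and 105 genes showed the opposite pair of signs. All 7 genes are among the 170, and as they were selected on these averages their count says nothing further. Ranked by the smaller of the 2 average sizes, CG31674 had the highest rank (0.96), followed by gcm (0.95) and Nagk (0.81). CG17883 (0.56) was the last one inside the selection. Spf45 (0.54), the next gene that passed in both averages, lay just outside.

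The sign of the ratio agreed over most arrays, and in the mutants most closely for Nagk. With ectopic gcm, 30 of 33 arrays had Nagk above wild type, and in the mutants 25 of 25 had it below as labelled, or 24 of 25 with replicate 4 of stage 12 turned round (24 of 24 without that array). In the mutants CG17883 was below wild type on 24 of 25 arrays, CG6180 on 22, CG7668 and CG2767 on 21, GAPsec on 20 and CG31674 on 18 of 24. With ectopic gcm, CG7668 was above wild type on 32 of 33 arrays, CG6180 on 31, GAPsec and CG17883 on 30, CG31674 on 29 of 32 and CG2767 on 26. With the doubtful mutant array turned, the mutant counts were 23 for CG17883, 21 for CG6180, 20 for CG7668 and CG2767, 21 for GAPsec and 17 for CG31674. As labelled, gcm was above wild type on 31 of 33 arrays and below it on 23 of 25.

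**Figure D1:**
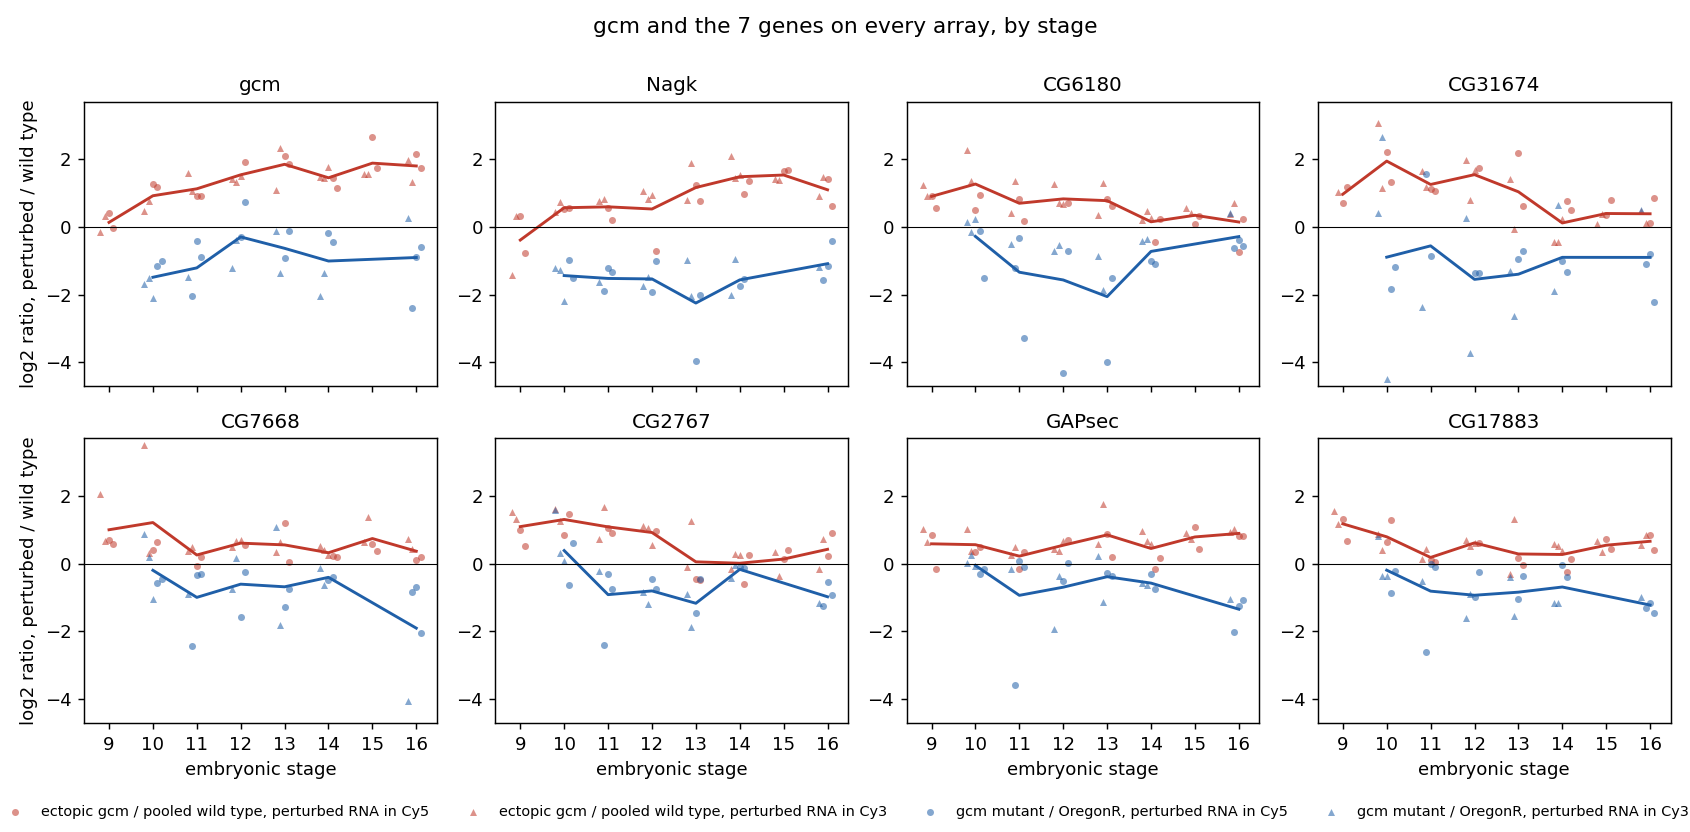
Log2 ratio of perturbed over wild type (vertical) against embryonic stage (horizontal) for gcm and the 7 genes; each point is 1 array, circles with the perturbed RNA in Cy5 and triangles in Cy3, and lines join stage means (stage 15 was not measured in the mutants). Nagk lay below wild type on all 25 mutant arrays as labelled, and with ectopic gcm its stage means ran between -0.39 at stage 9 and 1.53 at stage 15, while the other 6 genes were already above wild type on average at stage 9.

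gcm RNA itself was near wild type at the first stage of the ectopic gcm experiment and above it afterwards. Its ectopic gcm stage 9 values were -0.16, 0.33, 0.40 and -0.04, on both sides of wild type. Its stage means were 0.13, 0.92, 1.13, 1.54, 1.85, 1.45, 1.88 and 1.80 from stage 9 to stage 16, with every array of stages 10 to 16 above 0. In the mutants its stage means were -1.49, -1.21, -0.29, -0.63, -1.01 and -0.90 at stages 10, 11, 12, 13, 14 and 16. The 5 arrays of stage 10 all lay between -2.09 and -0.997, whereas stage 12 ranged from -1.22 to 0.74 (the highest from replicate 4, which would be at -0.74 if turned) and stage 16 from -2.40 to 0.27.

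Nagk with ectopic gcm was split at stage 9, with values of -1.41, 0.31, 0.32 and -0.77. The lowest of these came from the stage 9 array that lacked 49.6% of its probes. At stage 10 Nagk had values of 0.45, 0.72, 0.53 and 0.57, and at stage 11 values of 0.76, 0.83, 0.57 and 0.22. All 8 of these arrays were above wild type, and the stage 10 arrays differed little among themselves (SD 0.12). At stage 12 it had values of 1.07, 0.82, 0.93 and -0.705, the last being the only array after stage 9 below wild type. At stage 13 the values were 0.79, 1.89, 1.22 and 0.76, and at stage 14 they were 2.10, 1.44, 1.54, 0.98 and 1.35. At stage 15 they were 1.43, 1.38, 1.65 and 1.68, and at stage 16 they were 0.90, 1.46, 1.40 and 0.62. Stage 15 had the highest mean, 1.53 ± 0.15 (SD, n = 4), and its 4 arrays lay above all 12 arrays of stages 9, 10 and 11.

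Nagk in the mutants was low from the first stage measured. At stage 10 its values were -1.20, -1.28, -2.19, -0.99 and -1.52, at stage 11 they were -1.63, -1.89, -1.22 and -1.34, and at stage 12 they were -1.75, -1.47, -1.92 and -1.01. These 3 stages overlapped throughout, with means of -1.44, -1.52 and -1.54. At stage 13 the values were -0.98, -2.03, -3.95 and -2.02, a mean of -2.25 ± 1.24 (SD, n = 4) carried by 1 array. At stage 14 they were -2.02, -0.94, -1.74 and -1.55, and at stage 16 they were -1.19, -1.57, -1.15 and -0.42. The stage means of Nagk were below those of gcm at every mutant stage except stage 10, where gcm averaged -1.49. The gap was widest at stage 13, with -2.25 for Nagk and -0.63 for gcm. As labelled, the ranges of both genes overlapped at all 6 stages. Nagk at mutant stage 12 had -1.01 in replicate 4, which would be 1.01 if that array were turned.

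CG2767, the aldo-keto reductase gene, had the opposite course. With ectopic gcm its values at stage 9 were 1.53, 1.31, 1.01 and 0.53, at stage 10 they were 1.62, 1.28, 0.86 and 1.47, and at stage 11 they were 0.73, 1.66, 1.04 and 0.91. At stage 12 they were 1.10, 1.05, 0.55 and 0.98. All 16 arrays of stages 9 to 12 were thus above wild type. From stage 13 on the values straddled it: -0.11, 1.26, -0.46 and -0.48 at stage 13, -0.16, 0.29, 0.27, -0.59 and 0.26 at stage 14, 0.35, -0.37, 0.15 and 0.42 at stage 15, and -0.17, 0.74, 0.24 and 0.90 at stage 16. In the mutants CG2767 had 1.59, 0.30, 0.08, -0.62 and 0.60 at stage 10, the only mutant stage at which any of its arrays was above wild type. Its mutant means were then -0.91, -0.80, -1.17, -0.17 and -0.98 at stages 11, 12, 13, 14 and 16, with all 20 arrays below 0 as labelled (replicate 4 of stage 12 was at -0.75).

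CG31674, the dehydrogenase gene, and CG6180, the PEBP gene, were highest early with ectopic gcm. CG31674 had stage means of 0.97, 1.94, 1.25, 1.54, 1.04, 0.12, 0.40 and 0.39 from stage 9 to stage 16, and CG6180 had 0.90, 1.27, 0.70, 0.83, 0.78, 0.15, 0.34 and 0.14. All arrays of stages 9 to 12 were above wild type for both genes. In the mutants CG6180 had means of -0.28, -1.34, -1.57, -2.06, -0.72 and -0.29 at stages 10, 11, 12, 13, 14 and 16. The means of stages 11 to 13 rested partly on 1 array each, at -3.29, -4.32 and -3.99, with the other arrays of those stages between -1.86 and -0.33. CG31674 was the least repeatable in the mutants, with 5 arrays from -4.48 to 2.65 at stage 10, and it lacked a value on 1 array in each experiment.

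CG7668, CG17883 and GAPsec varied less between stages with ectopic gcm. CG7668 had stage means of 1.00, 1.22, 0.26, 0.61, 0.56, 0.33, 0.74 and 0.37, and a single array at 3.50 raised the stage 10 mean, the other 3 lying between 0.32 and 0.65. CG17883 had means of 1.18, 0.80, 0.19, 0.62, 0.29, 0.27, 0.55 and 0.66. GAPsec had means of 0.59, 0.56, 0.22, 0.55, 0.85, 0.45, 0.79 and 0.90, with stage 16 arrays between 0.81 and 1.02. In the mutants all 3 had their lowest mean at stage 16, at -1.90 for CG7668, -1.22 for CG17883 and -1.34 for GAPsec. At mutant stage 10, when gcm was at its lowest, they were at -0.19, -0.19 and -0.05.

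Whether the genes changed with time alongside gcm was asked by contrasts that the averages over stages do not fix. Late minus early with ectopic gcm set the mean of stages 13 to 16 against that of stages 9 to 12 in the fit of all 58 arrays. Nagk rose, averaging 1.32 late and 0.33 early, a difference of 1.00 ± 0.20 (SE; limma adjusted p = 0.00396). CG2767 fell, averaging 0.16 late and 1.10 early, a difference of -0.94 ± 0.19 (limma adjusted p = 0.00577). gcm rose as well, averaging 1.75 late and 0.93 early, a difference of 0.81 ± 0.20 (limma adjusted p = 0.0264). Among all probes, 201 of 14780, 1.36%, passed this test, 44 of them upwards. The other five genes did not pass: the differences were -0.94 ± 0.43 for CG31674, -0.55 ± 0.24 for CG6180, -0.26 ± 0.28 for CG7668, -0.24 ± 0.19 for CG17883 and 0.28 ± 0.22 for GAPsec, with limma adjusted p between 0.323 and 0.794. In the ectopic gcm arrays alone, 401 of 14780 probes passed, with CG31674 (-0.94 ± 0.21) and CG6180 (-0.55 ± 0.145) among them (limma adjusted p 0.0134 and 0.0347). Without stage 9, in the fit of all 58 arrays, the difference was 0.77 for Nagk (limma adjusted p = 0.108), 0.54 for gcm (0.407) and -0.93 for CG2767 (0.0215). Of these 3 only CG2767 passed. With arrays not centred neither Nagk (0.716) nor CG2767 (0.364) passed, and the call of gcm was lost without replicate 3 or 4 of stage 11 or replicate 3 of stage 15.

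The step after stage 9, when gcm RNA itself was near wild type, was asked separately. Nagk averaged 0.99 over stages 10 to 16 and -0.39 at stage 9, a difference of 1.37 ± 0.31 (limma adjusted p = 0.0314). gcm averaged 1.51 over stages 10 to 16 and 0.13 at stage 9, a difference of 1.38 ± 0.31 (limma adjusted p = 0.0297). This split was chosen because an earlier report of these data had placed gcm near wild type at stage 9. The value for gcm is therefore a description, and its p-value adds nothing further. In all, 52 of 14780 probes, 0.352%, passed. The other 6 genes did not pass, with differences from -0.71 ± 0.29 (CG17883) to 0.04 ± 0.75 (CG31674) and limma adjusted p of at least 0.304. They were at means of 0.59 to 1.18 at stage 9, where gcm averaged 0.13 ± 0.27 (SD, n = 4). The result for Nagk depended on 2 arrays of stage 9: without replicate 1, the one lacking 49.6% of the probes, the difference was 0.96 (limma adjusted p = 0.41), and without replicate 4 it was 1.29 (0.0563). For gcm the differences were 1.32 (0.167) and 1.29 (0.0521).

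**Figure D2:**
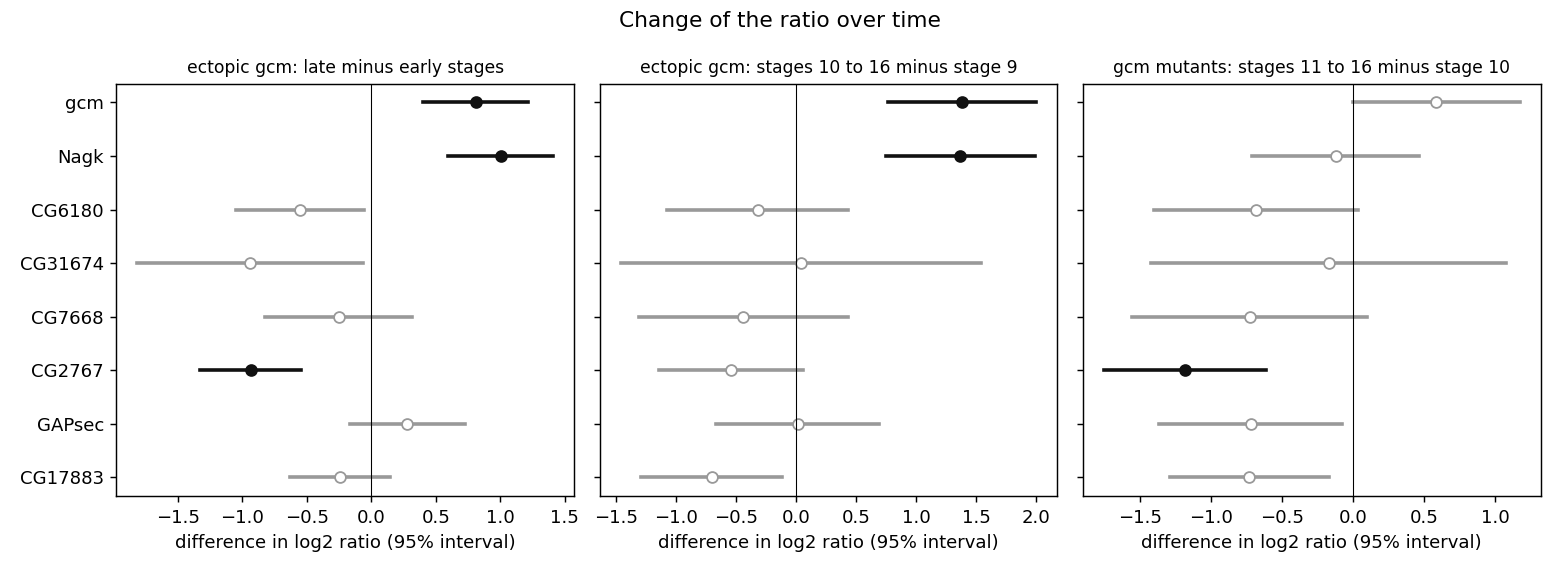
Differences in log2 ratio between stages (horizontal, estimate with 95% interval) for gcm and the 7 genes; black filled points passed the test over all probes and grey open points did not. Late minus early with ectopic gcm was 1.00 for Nagk, 0.81 for gcm and -0.94 for CG2767; stages 10 to 16 minus stage 9 was 1.37 for Nagk and 1.38 for gcm; stages 11 to 16 minus stage 10 of the mutants was -1.18 for CG2767.

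In the mutants none of the 7 genes, nor gcm, differed between late (13, 14 and 16) and early stages (10 to 12) at the threshold, against 836 of 15025 probes, 5.56%, in all. Nagk averaged -1.63 late and -1.50 early, a difference of -0.13 with a 95% interval of -0.60 to 0.34. The other differences lay between -0.40 (CG7668) and 0.08 (CG6180), with limma adjusted p of at least 0.466. The late mutant stages mix both balancers and the early ones do not, so balancer and time cannot be told apart in part of this contrast.

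The first mutant stage was set against the rest in a test added after the values had been seen. Stage 10 had the Kr-GFP balancer only and the rest mix both, so balancer and time cannot be told apart in part of it. CG2767 fell, averaging -0.80 over stages 11 to 16 and 0.39 at stage 10, a difference of -1.18 ± 0.28 (limma adjusted p = 0.00725). Overall 708 of 15025 probes, 4.71%, passed. For CG6180, CG7668, GAPsec and CG17883 the differences were -0.68 ± 0.36, -0.72 ± 0.41, -0.72 ± 0.32 and -0.73 ± 0.28, none past the threshold (limma adjusted p 0.129 to 0.376), although CG17883 and GAPsec passed with array weights (-0.52 and -0.59, limma adjusted p 0.0274 and 0.0241). Nagk differed by -0.12 ± 0.29, and gcm by 0.59 ± 0.29 in the other direction (limma adjusted p 0.91 and 0.289). Without replicate 1 of stage 10, where CG2767 was at 1.59, its difference was -0.90 (limma adjusted p = 0.0796), and it did not pass in the mutant arrays alone (0.106) or with arrays not centred (-0.88, 0.487).

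Whether the late-minus-early difference itself differed between experiments was tested over the 6 stages measured in both, also after the values had been seen. Its late mutant stages mix both balancers, with the same limit. The difference of differences, ectopic gcm minus mutants, was 0.83 ± 0.33 for Nagk and -0.60 ± 0.32 for CG2767, and neither passed (limma adjusted p 0.258 and 0.412). None of the 7 genes passed, against 94 of 13264 probes, 0.709%. With arrays not centred, the difference for CG2767 was -1.50 and passed (limma adjusted p = 0.0316), as 3197 probes did, and that for Nagk was -0.068.

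Over the 8 stage means with ectopic gcm, Nagk correlated with gcm at r = 0.88 (rho 0.74), rank 300 among 8875 genes. Over these genes the median r was 0.05, with quartiles of -0.36 and 0.47. GAPsec correlated at 0.48. The other 5 had a negative r, at -0.38 for CG31674, -0.53 for CG7668, -0.56 for CG6180, -0.65 for CG17883 and -0.73 for CG2767. repo, the known target, correlated at 0.96 while its own average was 0.34. Over the 6 mutant stages all 7 genes had a negative r, from -0.84 (CG31674) to -0.14 (CG7668), with -0.32 for Nagk. These stage means come from the same arrays and the correlations are descriptions. With ectopic gcm, stage 9 had the lowest mean of both gcm (0.13) and Nagk (-0.39), and 1 of its arrays lacked 49.6% of the probes. The correlation without stage 9 was not computed. With ectopic gcm Nagk thus had the course over stages nearest to that of gcm among the 7 genes. For 5 of them r was negative, though of these 5 only CG2767 passed late minus early. A course that follows gcm was thus not seen across the group. The difference between these correlations was not tested.

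**Figure D3:**
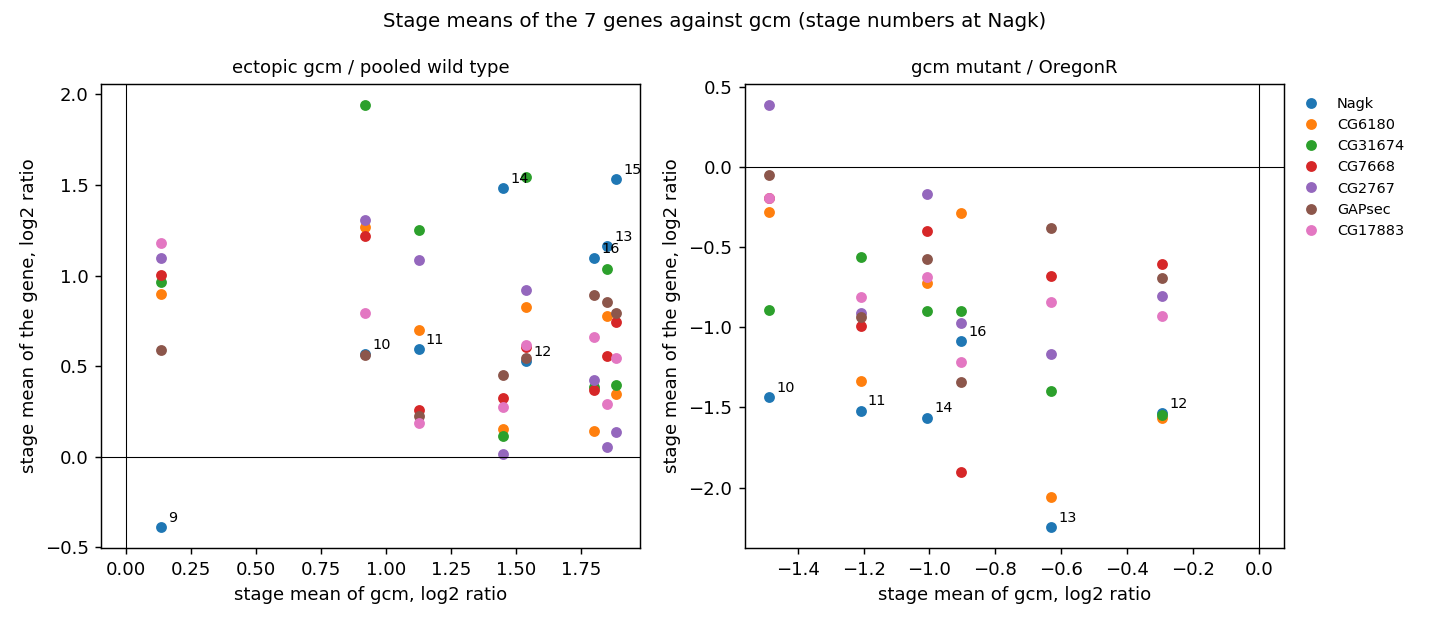
Stage mean of each of the 7 genes (vertical, log2 ratio) against the stage mean of gcm (horizontal, log2 ratio), with ectopic gcm on the left and in the mutants on the right; numbers beside the Nagk points are stages. With ectopic gcm Nagk runs upwards with gcm (r = 0.88) and CG2767 downwards (r = -0.73); in the mutants Nagk stays between -2.25 and -1.09 at every gcm level.

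Replicate arrays of one stage also differed in gcm, and each gene was regressed on gcm within stages, a quantity that the averages do not hold. With ectopic gcm 0 of 14779 probes, 0%, had a slope past the threshold by limma, while 1165 had an unadjusted p under 0.05. The slopes of the 7 genes ran from -0.34 ± 0.71 (CG31674) to 0.50 ± 0.26 (CG17883), with 0.47 ± 0.30 for Nagk. In the mutants GAPsec rose by 0.73 ± 0.17 (limma adjusted p = 0.00537) and CG17883 by 0.57 ± 0.15 (limma adjusted p = 0.0138) per unit of gcm. There 1041 of 15024 probes, 6.93%, passed, 960 of them with a positive slope. Nagk had a slope of 0.43 ± 0.17 that did not pass (limma adjusted p = 0.116). It passed without replicate 1 of stage 16, at 0.74 (limma adjusted p = 0.0114), with zeros kept, at 0.62 (0.0134), and with arrays not centred, at 0.78 (1.83e-05). Not centred, 8084 of 15024 probes passed, so that call is not particular to Nagk. Replicate 2 of mutant stage 11 weighed on both passing slopes, with gcm at -2.04, GAPsec at -3.58 and CG17883 at -2.60. Without it the slope was 0.45 for GAPsec (limma adjusted p = 0.0419) and 0.39 for CG17883 (0.118), and with the replicate number as a block neither slope passed (0.153 and 0.223). With replicate 4 of stage 12 turned, GAPsec passed (0.71, limma adjusted p = 0.0235) and CG17883 did not (0.55, 0.0698). GAPsec and CG17883 also correlated with each other within stages, at 0.81 with ectopic gcm and 0.82 in the mutants, the highest of 21 pairs in both experiments. Both correlations, over the arrays' deviations from their stage means with the dye effect left in, are descriptions. Pairs beyond the 7 genes and gcm were not computed, so a likeness shared by many genes cannot be told apart.

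Dye orientation and repeat spots bear on how far each value can be read. Nagk in the mutants averaged -1.59 ± 0.81 (SD, 14 arrays) with mutant RNA in Cy5 and -1.52 ± 0.44 (11 arrays) with it in Cy3. CG6180 was the least even, at -1.48 ± 1.38 with mutant RNA in Cy5 and -0.42 ± 0.63 in Cy3. The 2 spots of a probe correlated across arrays at 0.96 for CG17883, 0.91 for CG2767, 0.90 for gcm, 0.86 for GAPsec, 0.81 for Nagk and 0.74 for CG6180. For CG7668 they correlated at 0.35 and for CG31674 at 0.18, where both spots were measured on only 38 arrays. All 7 genes kept the sign of both averages in either orientation.

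**Figure D4:**
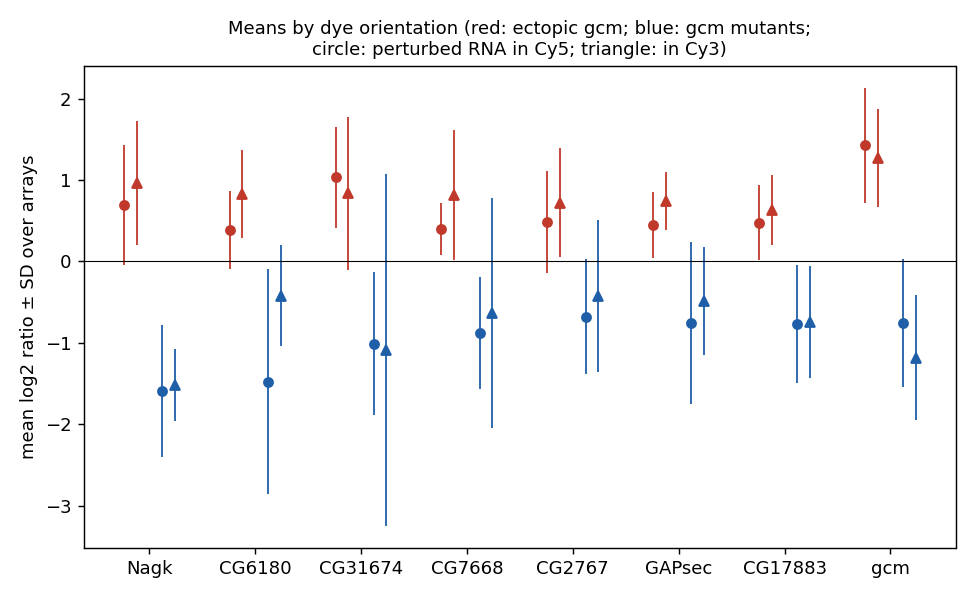
Mean log2 ratio ± SD over arrays (vertical) of the 7 genes and gcm by experiment (red, ectopic gcm; blue, mutants) and by the dye of the perturbed RNA (circle, Cy5; triangle, Cy3). Both orientations lie on the same side of 0 for every gene, and CG6180 in the mutants differs most between them, at -1.48 in Cy5 and -0.42 in Cy3.

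The genes whose 14 stage means resembled those of Nagk most, by Pearson's r over both experiments among 11577 genes, were CG7763 (0.96), NimC4 (0.95), Rab9 (0.95), gcm (0.94) and Elp6 (0.93). NimC4, a phagocytic receptor of the Nimrod family, and CG7763 were not raised by ectopic gcm: their averages were -0.50 and -0.36 with ectopic gcm and -1.72 and -2.34 in the mutants. Rab9, a small GTPase of endosomes, averaged 0.33 with ectopic gcm and -2.30 in the mutants, and Elp6, an Elongator subunit, averaged 0.53 and -0.27. NimC4 also rose from early to late stages with ectopic gcm, by 0.81 (limma adjusted p = 0.0111). Of the selected genes, GAPsec was the most like Nagk (0.82, rank 101) and CG2767 the least (0.59, rank 917). The 14 means include the gap between the experiments, on which the 7 genes were selected.

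Genes beside the 7 gave a mixed picture. Of the 28 genes next to the 7 in the RefSeq annotation, 2 on each side, 23 had a probe and 17 were tested in both averages. Of these 17, CG17486, beside CG17883, was called higher with ectopic gcm (0.41) and lower in the mutants (-0.59), against 170 of 7886 genes overall. Nipped-B, on the other side of CG17883, averaged 0.30 and -0.63 without passing in the gain. CG31673, the neighbour of CG31674 and of the same enzyme family, was higher in both experiments, at 1.15 with ectopic gcm and 1.40 in the mutants. Beside Nagk, Fkbp39 and Cyfip averaged 0.27 and 0.26 with ectopic gcm and -0.07 and -0.09 in the mutants. These values are a description.

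Relatives of the selected genes gave mixed values. Of 18 listed amino sugar genes, Nagk included, 13 had a probe. Nagk apart, 0 of the 10 tested passed late minus early with ectopic gcm by limma (median 0.20, against -0.01 over all probes). With ectopic gcm 2 of these 10 were higher and 6 lower on average, against 2090 higher and 2014 lower of 14780 probes in all, and in the mutants 0 were higher and 3 lower by limma. Among the lower ones was Gfat2, a first enzyme of hexosamine synthesis, at -0.35 with ectopic gcm and -0.74 in the mutants. Oga, which removes O-linked N-acetylglucosamine, rose after stage 9 by 1.06 (limma adjusted p = 0.0281) and from early to late in the mutants by 0.56 (limma adjusted p = 0.0468). Of 4 PEBP relatives tested, CG7054 was higher in both experiments (0.89 with ectopic gcm and 1.36 in the mutants). CG17917 and CG17919 were lower in the mutants, at -0.95 and -0.62, as CG6180 was, and with ectopic gcm they averaged -0.26 and -0.12 without passing. Of 5 aldo-keto reductases tested, CG10863 was higher in both too (1.13 and 0.66), and so was CG9436 (0.77 and 1.26), which fell late in the mutants by 1.21 (limma adjusted p = 0.00149). Among TBC and selenoprotein genes 0 of 16 passed late minus early in either experiment by limma. There Tbc1d15-17 averaged 1.12 with ectopic gcm and 0.69 in the mutants.

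Markers of other cell types moved in the same arrays. Of 14 blood cell genes, 10 were lower and 0 higher on average with ectopic gcm by limma, and 8 were lower and 0 higher in the mutants. Of 13 maternal and egg genes tested, 11 were higher with ectopic gcm (median 1.92), and of 12 tested in the mutants 10 were higher (median 1.39). Of 11 glial genes, 4 were higher and 3 lower with ectopic gcm, against 1 higher and 6 lower in the mutants. Over all probes, 2090 were higher and 2014 lower of 14780 with ectopic gcm, and 2087 higher and 2066 lower of 15025 in the mutants. In time, the glial genes moody and htl rose from early to late with ectopic gcm, by 0.73 each (limma adjusted p 0.0436 and 0.00907). There repo differed by 0.29 ± 0.14 without passing, and the maternal gene Tl passed at -0.49 (limma adjusted p = 0.0455). In the mutants late minus early was 1.51 for the glial gene Gs2 (limma adjusted p = 6.89e-07). It was 0.79 for Pvr and -1.53 for PPO1 of the blood cell list, and -0.83 for the maternal gene smg (limma adjusted p 0.0076, 0.00199 and 0.00611). After mutant stage 10, Gs2 differed by 1.64 and the blood cell gene LanA by 0.99 (limma adjusted p 1.3e-05 and 0.00152). gcm2 averaged -0.04 with ectopic gcm and -0.59 in the mutants. Nagk's stage means correlated at a median r of 0.41 with those of the blood cell genes, 0.38 with the glial genes and 0.23 with the maternal and egg genes, against 0.03 over all genes. Within these lists r ran from -0.52 to 0.95, from -0.59 to 0.75 and from -0.81 to 0.64. The 14 means behind r include the gap between the experiments, on which Nagk was selected. For the listed 2-hydroxyacid dehydrogenases the median r was 0.41 as well. The part of these markers in the values of the 7 genes was not tested.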

How the data were processed

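The authors deposited a log2 Cy5/Cy3 ratio for every spot (base 2 was read from the values), made with ScanArray 3.1 and GenePix 5.0, per the labels' protocols; background correction and normalization are not given in the sources used here. It lists 47616 spots, with the repeat of each of 23808 probes 1984 spots later. Exact zeros and log2 sizes of 9 or more were taken as missing, spots of a probe averaged, arrays centred on their median and ratios turned to perturbed over wild type by the labelled dyes. Numbers of arrays, not counts, limit precision. Names came from the platform annotation, updated through RefSeq Release 6 (12851 of 13455 probes with 1 gene); a gene with several probes took the one measured on most arrays.

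A linear model per probe over 58 arrays, with 14 groups and a dye term per experiment (16 coefficients), was fitted in R 4.3.3, and its variances were moderated with limma 3.58.1. Tests were two-sided, with Benjamini-Hochberg adjustment over all probes tested in a comparison and a threshold of 0.05. A group needed at least 3 arrays and both orientations. The residual variance of a probe was shared by both experiments, so every SE from this fit reflects the spread of both. The fitted differences include the dye terms, so they can differ slightly from those of the plain means printed beside them. The script was checked on simulated data. Figures used Python 3.11.15 and matplotlib 3.10.9.

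The 7 genes, the lists of relatives and markers and the tests were chosen with earlier results of these data known. The genes named are the 7, gcm, gcm2, repo, the 5 most like Nagk, neighbours (2 per side) and list genes past a test. Not every list gene past a test is named. Spf45, and the list genes given with averages only, were picked after their values were seen. Labels call the experiments independent; where arrays share embryos is not given, so p-values measure the spread between these arrays. Alternatives were: no centring, equal spread, no filter on missing values, probes on every array, zeros kept, repeat spots with an SD under 0.333, no dye term, array weights, each experiment alone, a replicate block, arrays lacking over 40% of the probes left out, a linear trend, stage 9 left out, each array left out and, added after the values were seen, replicate 4 of mutant stage 12 turned round.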

Additional observations from a re-analysis of the deposited data

Results flagged for a closer look

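For each of the 7 genes and gcm, the highest or lowest array of a stage was compared with its nearest neighbour by Dixon's ratio. Of 110 sets of 4 or 5 arrays, 8 had an array standing apart, where chance gives about 1 in 20. With ectopic gcm these were Nagk at stage 12 (-0.705, replicate 4, nearest 0.82), CG6180 at stage 12 (1.26, replicate 1, nearest 0.70) and at stage 14 (-0.45, replicate 4, nearest 0.21), and CG7668 at stage 9 (2.06, replicate 1, nearest 0.70) and at stage 10 (3.50, replicate 1, nearest 0.65). In the mutants they were CG6180 at stage 10 (-1.52, replicate 5, nearest -0.15) and at stage 12 (-4.32, replicate 3, nearest -0.70), and GAPsec at stage 11 (-3.58, replicate 2, nearest -0.15). gcm had none. CG6180 accounted for 4 of the 8.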

How the results depend on the processing

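All 16 stage averages of the 7 genes and gcm kept their sign under every alternative computed. Sizes moved, and the mutant average of CG31674 (-1.03) ran from -1.36 to -0.38. Its rank by the smaller average was not computed under the alternatives. As the 7 genes were selected on the size and sign of these averages, this says little further about them. Nagk stayed past the threshold for late minus early with ectopic gcm under each alternative but 2, with 0.90 to 1.08 when any one array was left out, and CG2767 under each but 1, with -1.03 to -0.87. The exceptions were Nagk at 0.91 (limma adjusted p = 0.716) and CG2767 at -1.03 (0.364) with arrays not centred, and Nagk without stage 9. gcm itself lost this call not centred (0.72, limma adjusted p = 0.851), with zeros kept (0.81, limma adjusted p = 0.097), without the arrays lacking many probes (0.79, 0.0639), and without replicate 3 (0.78, 0.0521) or 4 (0.78, 0.0538) of stage 11 or replicate 3 of stage 15 (0.75, 0.0593). For Nagk, stages 10 to 16 minus 9 lost its call not centred (1.71, limma adjusted p = 0.339), with zeros kept (1.43, 0.156), with array weights (0.98, 0.123) and without arrays lacking many probes (0.96, 0.415), and for gcm not centred (1.73, 0.308), with zeros kept (1.45, 0.0909) and without arrays lacking many probes (1.31, 0.191). The mutant slopes of GAPsec and CG17883 lost their calls with equal spread (0.48 and 0.49), array weights (0.49 and 0.42), the mutant arrays alone (limma adjusted p 0.152 and 0.182) and the replicate block (0.57 and 0.46), and CG17883 also on reproducible spot pairs (0.50). CG2767's change after mutant stage 10 lost its call not centred (-0.88) and in the mutant arrays alone (limma adjusted p = 0.106). In the ectopic gcm arrays alone, CG31674 and CG6180 passed late minus early (limma adjusted p 0.0134 and 0.0347), and on reproducible spot pairs CG17883 passed after stage 9 (-0.81), after mutant stage 10 (-0.66) and late in the mutants (-0.52). Not centred, slopes also passed for Nagk (0.96), CG17883 (0.92), GAPsec (0.88) and CG2767 (0.89) with ectopic gcm and for CG6180 (0.76) and CG2767 (0.58) in the mutants. In that setting 8967 of 14779 probes passed with ectopic gcm and 8084 of 15024 in the mutants. These calls are therefore not particular to the genes. With replicate 4 of mutant stage 12 turned round, no member average changed sign, CG2767's change after stage 10 still passed (-1.10, limma adjusted p = 0.0245), and of the calls in the mutants the CG17883 slope was lost.

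Counts of passing probes moved as follows. The number tested is given first for each comparison and again where a setting changed it. Late minus early with ectopic gcm had 201 of 14780, against 1 not centred, 434 with equal spread, 1050 with array weights and 401 in that experiment alone. It had 124 without arrays lacking many probes, 344 for a linear trend, and 120 (without replicate 3 of stage 15) to 223 leaving out 1 array. It had 67 of 23428 with zeros kept, 648 of 3183 on reproducible spot pairs and 87 of 17084 without stage 9. In the mutants late minus early had 836 of 15025, against 2654 not centred, 304 alone and 1309 with replicate 4 of stage 12 turned round. It had 388 of 2116 on spot pairs. Stages 10 to 16 minus 9 had 52 of 14780, against 3 not centred, 19 with equal spread, 25 without a dye term and 7 without arrays lacking many probes. Leaving out 1 array gave 5 (without replicate 1 of stage 9) to 172 (without replicate 4). It had 95 of 23584 unfiltered, 7 of 23428 with zeros kept and 153 of 3183 on spot pairs. Stages 11 to 16 minus 10 of the mutants had 708 of 15025, against 89 not centred, 2002 with array weights, 217 alone, and 431 to 920 leaving out 1 array. It had 393 of 23803 with zeros kept. The difference between experiments had 94 of 13264, against 3197 not centred, 323 with array weights, 217 with replicate 4 of mutant stage 12 turned, and 65 to 197 leaving out 1 array. Slopes on gcm with ectopic gcm had 0 of 14779, against 8967 not centred and 2 with equal spread. Mutant slopes had 1041 of 15024, against 8084 not centred, 53 with equal spread, 19 with array weights and 38 alone. They had 281 with that array turned and 61 with the replicate block. Leaving out 1 array gave 357 (without replicate 2 of stage 11) to 1653 (without replicate 1 of stage 16). They had 2133 of 23802 with zeros kept and 21 of 2116 on spot pairs. The cause was not tested.

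Values that changed sign were below the threshold before and after, except the CG6180 slope with ectopic gcm, which passed not centred (limma adjusted p = 0.00743). In that setting 8967 of 14779 probes passed this slope. Not centred, late minus early in the mutants was 0.30 for CG17883, 0.25 for CG2767, 0.48 for CG31674, 0.18 for CG7668, 0.37 for GAPsec and 0.45 for Nagk; stages 10 to 16 minus 9 was 0.018 for CG6180; stages 11 to 16 minus 10 was 0.15 for CG31674 and 0.18 for Nagk; the slope with ectopic gcm was 0.64 for CG31674, 0.81 for CG6180 and 0.59 for CG7668, the mutant slope of CG7668 was 0.47, and Nagk's difference between experiments was -0.068. With array weights, CG31674 was 0.68 late in the mutants and had a slope with ectopic gcm of 0.087, CG2767 a slope of -0.23 and CG7668 one of 0.026, and GAPsec was -0.022 after stage 9. With zeros kept, slopes were 0.17 (CG31674) and 0.072 (CG6180) with ectopic gcm and 0.23 (CG7668) in the mutants. With equal spread CG31674 was 0.026 late in the mutants and Nagk 0.093 after stage 10. Without a dye term CG2767 had a slope of -0.039 with ectopic gcm and CG31674 was -0.012 after stage 9. CG6180 was -0.11 late in the mutants without arrays lacking many probes, and Nagk's mutant trend was 0.045 per stage. With the replicate block, CG31674 was 0.014 late in the mutants and -0.098 after stage 9. Leaving out any one array, the ranges that crossed 0 were -0.24 to 0.23 (CG2767), -0.48 to 0.067 (CG7668) for slopes with ectopic gcm; -0.29 to 0.48 (CG31674) and -0.23 to 0.72 (CG7668) for mutant slopes; -0.38 to 0.31 (CG31674), -0.19 to 0.25 (CG6180), -0.27 to 0.056 (Nagk) and -0.069 to 0.31 (gcm) late in the mutants; -0.14 to 0.16 (CG31674) and -0.19 to 0.16 (GAPsec) after stage 9; and -1.04 to 0.69 (CG31674) and -0.32 to 0.040 (Nagk) after mutant stage 10.

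Replicate numbers share no stated source. Deviations from stage and dye means, for arrays of the same number and dye, had median correlations of -0.047 with ectopic gcm and -0.064 in the mutants. For arrays of different number and the same dye they were -0.051 and -0.064. With ectopic gcm 100 pairs of the same number shared the dye and 12 did not. Removing the dye means thus also removes much of what a number could share, so these correlations cannot measure an effect of replicate number. With the number as a replicate block, late minus early had 181 calls with ectopic gcm and 823 in the mutants, and stages 10 to 16 minus 9 had 36. Mutant slopes on gcm had 61 calls with this block, against 1041 without it. Ratios hold no intensity, so signal over background limits the reading in a way that could not be measured.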
